A study of Mus musculus with 7 samples.

Results

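The genes described here are 28 genes of cholesterol and fatty acid synthesis, taken from the 38026 genes of the deposited table by their symbols. They comprise 6 genes of the mevalonate steps and 11 genes of the steps from squalene synthesis to cholesterol. The others are 4 regulators, 6 genes of fatty acid synthesis and desaturation and 1 sterol carrier. All 28 were found once in the table and all 28 passed the filter on low values. RNA was sequenced from 7 subcutaneous tumors in C57BL/6 mice that received no treatment and were harvested 2 weeks after inoculation. The tumors were formed by 1242 KPC cells, a pancreatic ductal adenocarcinoma (PDA) line from a mouse tumor driven by alleles that Pdx1-driven Cre switches on. The cells of both groups carried SpCas9 from a puromycin-selected lentivirus, together with a scrambled guide RNA (sgScramble, 4 tumors, replicates 1 to 4) or a guide RNA against *Krt19* (sgKrt19, 3 tumors, replicates 5, 6 and 8). *Krt19* encodes a keratin of epithelial cells, and the study edited it to ask how tumors change when the cancer cells lack it. The sources used here do not say which of the study's guides these cells carried, or whether they were a polyclonal line or a single clone. The mice were bought at 6 weeks of age and kept for 2 weeks before use. The edit and whatever else arose while each cell line was made cannot be told apart, and p-values measure the spread between these tumors.

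Cholesterol is built from acetyl-CoA through mevalonate, isoprenoids, squalene and lanosterol. Fatty acids are built from acetyl-CoA that ATP citrate lyase releases from citrate, which acetyl-CoA carboxylase and fatty acid synthase turn into palmitate before elongases and desaturases modify it. Both pathways are controlled by the sterol regulatory element binding proteins (SREBPs), membrane-bound transcription factors that SCAP escorts to the Golgi for cleavage when sterols are low and that INSIG proteins hold back in the endoplasmic reticulum. The product of *Srebf2* acts mostly on cholesterol genes and the main product of *Srebf1* in lipogenic tissue mostly on fatty acid genes. Many tumors make their own fatty acids.

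The promoters of the members were read first, because SREBPs are known to act at promoters together with NF-Y and Sp1. RefSeq windows (GRCm38.p6) that reach 250 bases before each annotated start were found for 22 of the 28 members. *Sqle*, *Fdft1*, *Fdps*, *Scd1*, *Scd2* and *Stard4* had no entry. On both strands 3 motifs were searched, namely a sterol regulatory element core (TCACNCCAC), the CCAAT box bound by NF-Y and the GGGCGG box bound by Sp1. The 4 stretches shown are those of the fatty acid genes with the largest differences between the groups (*Fasn* and *Acly*), of the cholesterol gene that rose (*Msmo1*) and of the member that holds the sterol element core (*Hmgcs1*). Each runs 5′ to 3′ on the strand of its gene and ends at the base before the start, with the motifs in capitals. They lie at chr11:120824548-120824797 (minus strand), chr11:100528001-100528250 (minus strand), chr8:64733579-64733828 (minus strand) and chr13:119690101-119690350 (plus strand).
*Fasn*: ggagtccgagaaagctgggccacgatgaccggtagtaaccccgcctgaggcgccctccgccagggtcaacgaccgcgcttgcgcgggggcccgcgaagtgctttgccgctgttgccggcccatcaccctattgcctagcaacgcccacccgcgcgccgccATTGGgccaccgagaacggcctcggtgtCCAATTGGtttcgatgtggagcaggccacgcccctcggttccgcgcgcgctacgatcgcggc
*Acly*: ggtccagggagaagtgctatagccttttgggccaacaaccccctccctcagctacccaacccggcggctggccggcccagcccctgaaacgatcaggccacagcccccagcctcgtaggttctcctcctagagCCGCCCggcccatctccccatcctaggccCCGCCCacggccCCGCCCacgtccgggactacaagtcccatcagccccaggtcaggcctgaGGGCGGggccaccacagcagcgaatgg
*Msmo1*: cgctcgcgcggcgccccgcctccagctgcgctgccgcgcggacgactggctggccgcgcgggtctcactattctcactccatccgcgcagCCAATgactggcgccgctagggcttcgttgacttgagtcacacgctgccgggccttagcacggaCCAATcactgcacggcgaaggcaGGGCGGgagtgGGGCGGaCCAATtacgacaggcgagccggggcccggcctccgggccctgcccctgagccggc
*Hmgcs1*: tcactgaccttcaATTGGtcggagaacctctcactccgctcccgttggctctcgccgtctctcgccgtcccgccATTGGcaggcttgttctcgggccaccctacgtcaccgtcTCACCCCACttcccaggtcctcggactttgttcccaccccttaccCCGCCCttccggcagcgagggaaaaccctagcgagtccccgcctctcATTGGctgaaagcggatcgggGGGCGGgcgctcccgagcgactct

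*Fasn* held 3 CCAAT boxes and no GGGCGG box, and 2 of its CCAAT boxes overlap on opposite strands. *Acly* held 4 GGGCGG boxes before its start, and its only CCAAT box lay after the start, outside the stretch shown. Over the whole windows, which also hold 50 bases after the start, a CCAAT box was found in 19 of the 22 matched members (86.4%) and in 41.1% of all 27025 genes with a window. A GGGCGG box was found in 18 of 22 (81.8%), against 38.2% of all genes. The sterol element core was found only in *Hmgcs1* among the 22, 137 bases before its start, against 1.44% of all genes. These counts describe letters in a window and say nothing about binding. All 9 matched genes of the sterol steps held both boxes in at least 1 window, whereas *Acaca* and *Elovl6*, both of fatty acid synthesis, held none of the 3 motifs.

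The libraries held 40781199 to 44972100 reads. Values are normalised read counts (the reads of a gene over the library's size factor), with SDs over tumors as errors. A count of 3 reads, used as the floor of detection, was a value of 2.74 to 3.47, and the lowest value of any member was 420 (*Hsd17b7* in sgScramble 3). *Krt19* was at 25574, 21179, 27618 and 17841 in sgScramble tumors and at 1606, 1960 and 2470 in sgKrt19 tumors, a log2 fold change of −3.52 ± 0.18 (SE), at an adjusted p of 1.74e-05 in limma, which follows the labels. The groups also differed in markers of cell types. Summed markers of T cells were 565 to 1192 in sgScramble and 3469 to 6438 in sgKrt19, and those of skeletal muscle were 56.3 to 2187 and 19048 to 27032. Summed epithelial markers, which check for cancer cells, were 121547 to 166373 and 252253 to 263688, so they were present in every tumor. Most of this sum was *Krt8* and *Krt18*, also keratins, with means of 55494 and 49260 in sgScramble and 103416 and 95589 in sgKrt19. Of the 12 epithelial markers 6 were called higher and 0 lower. The 6 not called ranged from 48.6% (*Cldn4*) to 166% (*Ocln*) of the sgScramble mean, so the sum is no measure of cancer cell content. These are values of whole tumors, in which fewer cells of a type and less RNA per cell cannot be told apart.

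Among the 28 members, the 3 fatty acid synthesis genes that passed the test were lower in sgKrt19 tumors, and 16 of the 17 cholesterol synthesis genes did not pass it. Fatty acid genes outside the members moved both ways and are given with them. In limma's moderated test on log2(value + 1), with adjusted p-values over all 21322 genes tested and a threshold of 0.05, 2 members were higher (*Msmo1*, *Scap*) and 4 were lower (*Srebf1*, *Acly*, *Acaca*, *Fasn*) in sgKrt19. The 6 called are 21.4% of the members. Among all genes tested 34.0% were called, 17.9% higher and 16.0% lower. All members had a mean value of at least 500, and of the 10737 genes at that level 35.8% were called, 21.5% higher and 14.3% lower. The share of the members lies under these shares, which was not tested. Without sgScramble 2 or without sgKrt19 8 the members called lower numbered 2 (*Acly* and *Fasn*). The median log2 fold change of the members was −0.04, against 0.01 over all genes tested and 0.06 over those at the same level. Between the groups the values of 22 of the 28 members overlapped. They did not overlap for 6 members, against 41.1% of all genes tested and 43.7% of those at the same level.

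**Figure D1:**
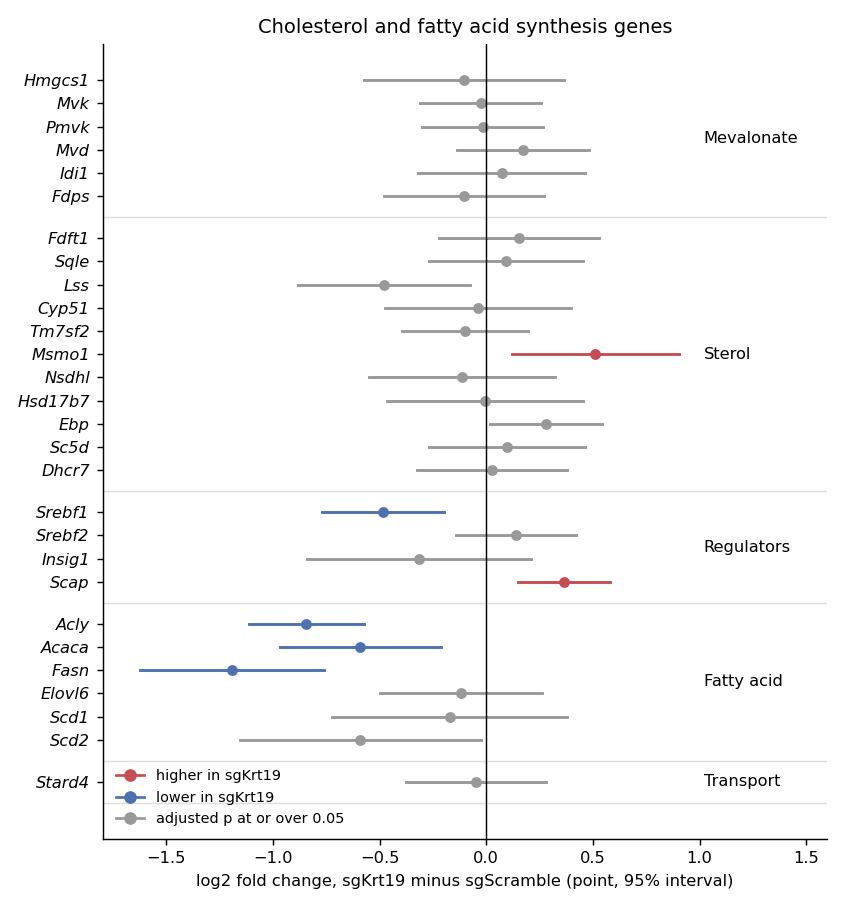
Log2 fold change (sgKrt19 minus sgScramble) of the 28 members, by role, from limma on log2(value + 1) with 4 and 3 tumors. Points are estimates and lines 95% intervals, red for the 2 genes higher, blue for the 4 lower and grey for the 22 that did not pass the test. The 3 lowest estimates called all belong to fatty acid synthesis.

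The fatty acid branch held the largest differences. *Fasn* (ENSMUSG00000025153.9, chromosome 11, 120805846 to 120824547, minus strand, GRCm38) encodes fatty acid synthase, which makes palmitate. It was at 7158, 11119, 7409 and 11156 in the 4 sgScramble tumors and at 3361, 4778 and 3803 in the 3 sgKrt19 tumors. The highest sgKrt19 tumor was below the lowest sgScramble tumor, and within sgScramble the tumors 2 and 4 stood above 1 and 3. *Fasn* was 0.437-fold of sgScramble (95% interval 0.324 to 0.589), a log2 fold change of −1.19 ± 0.19 (SE), at an adjusted p of 0.00148 in limma.

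*Acly* (ENSMUSG00000020917.17, chromosome 11, 100476353 to 100528000, minus strand) encodes ATP citrate lyase, the enzyme that supplies cytosolic acetyl-CoA from citrate to both pathways. Its values were 6990, 8236, 6836 and 8293 in sgScramble and 4015, 4756 and 3907 in sgKrt19. The groups did not overlap, and tumors 2 and 4 were again the higher of the sgScramble group. The level was 0.557-fold of sgScramble (95% interval 0.462 to 0.672), a log2 fold change of −0.84 ± 0.12 (SE), at an adjusted p of 0.00078 in limma. *Fasn* and *Acly* passed the test under every one of the 15 other settings tried.

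*Acaca* (ENSMUSG00000020532.18, chromosome 11, 84129672 to 84401651, plus strand) encodes acetyl-CoA carboxylase alpha, which makes the malonyl-CoA that fatty acid synthase uses. Its values were 1881, 2573, 1814 and 2595 in sgScramble and 1413, 1755 and 1232 in sgKrt19. The gap between the groups was narrow, since the highest sgKrt19 tumor came close to the lowest sgScramble tumor. The log2 fold change was −0.59 ± 0.17 (SE), at an adjusted p of 0.0239 in limma, or 0.664-fold. It did not pass the test in 5 of the 15 other settings, among them the omission of sgScramble 2, sgScramble 4, sgKrt19 5 or sgKrt19 8. Of the 76-base windows of its transcripts 26.6% also occur in transcripts of other genes, with *Gm5182* sharing more than any other, so part of its count is uncertain, whereas *Fasn* and *Acly* shared none.

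The elongase and the desaturases did not pass the test. *Scd2*, a stearoyl-CoA desaturase that introduces the double bond of oleate, had the highest level per kilobase of exon among the 28 members, 9076 ± 2338 in sgScramble and 6096 ± 1830 in sgKrt19. Its values were 44919, 66950, 36693 and 49793 in sgScramble and 38652, 39504 and 21776 in sgKrt19, and these overlap. The log2 fold change was −0.59 ± 0.26 (SE) with a 95% interval of −1.16 to −0.02 (limma, adjusted p = 0.0971), and it passed in DESeq2 and with scaling by library totals. *Scd1*, a desaturase of the same family, was at 7201, 8469, 4019 and 7256 in sgScramble and 6233, 7004 and 4381 in sgKrt19, a log2 fold change of −0.17 with an interval of −0.72 to 0.38 (limma, adjusted p = 0.609). *Elovl6*, which elongates palmitate, differed by −0.12 with an interval of −0.50 to 0.26 (limma, adjusted p = 0.608). These intervals do not show that the genes were alike in both groups. Over the 6 genes of this branch the median log2 fold change was −0.59, with 3 lower and 0 higher. Among all genes tested 16.0% were called lower. The 3 lower genes all lie on chromosome 11, where 34.9% of genes with a mean value of at least 500 were called lower, as described below.

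**Figure D2:**
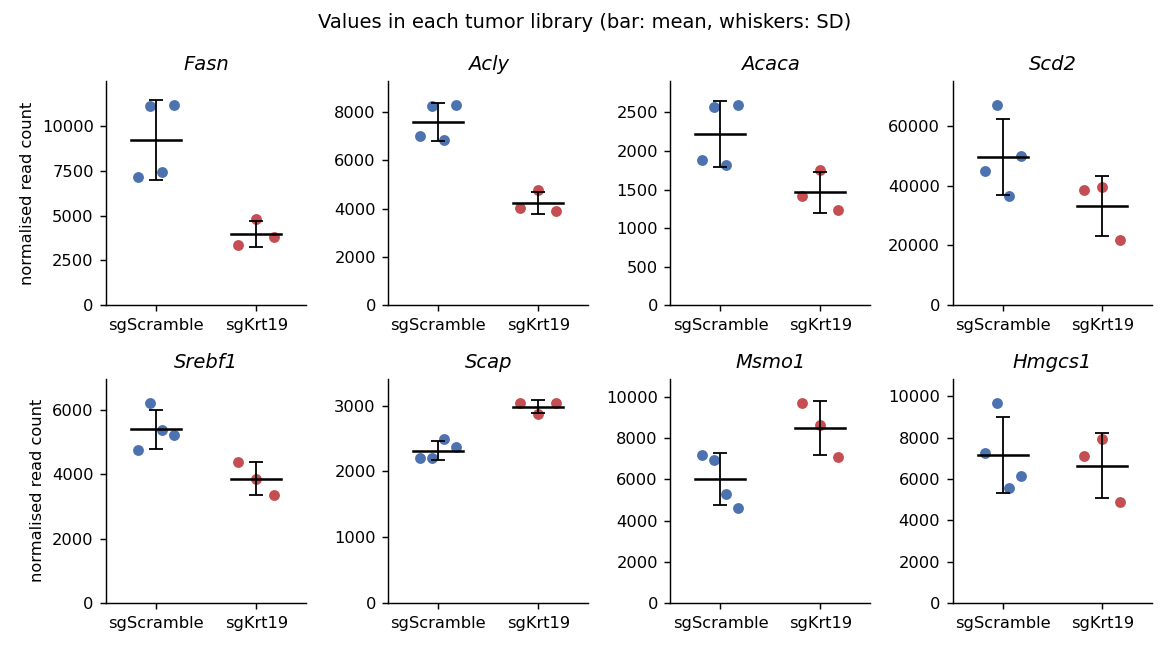
Normalised read counts of 8 members in each tumor, sgScramble in blue (n = 4) and sgKrt19 in red (n = 3), with the mean as a bar, the SD as whiskers and axes starting at 0. *Fasn*, *Acly*, *Acaca* and *Srebf1* are lower in every sgKrt19 tumor than in any sgScramble tumor and *Scap* is higher, while *Scd2*, *Msmo1* and *Hmgcs1* overlap.

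Other genes of fatty acid synthesis, elongation, desaturation and activation moved in both directions. Of 18 in the list 17 were tested, 5 were higher and 4 lower, and the median log2 fold change was 0.17. *Acss2* encodes the cytosolic acetyl-CoA synthetase that makes acetyl-CoA from acetate, the source beside ATP citrate lyase. It was at 754, 713, 785 and 629 in sgScramble and at 1584, 1744 and 1881 in sgKrt19, a log2 fold change of 1.27 ± 0.12 (SE), at an adjusted p of 8.3e-05 in limma. The ratio of *Acly* to *Acss2* within a library, which no scaling changes and which was chosen after the values were seen, was 9.27, 11.5, 8.70 and 13.2 in sgScramble and 2.54, 2.73 and 2.08 in sgKrt19. *Scd3* and *Scd4*, desaturases that lie next to *Scd1* and *Scd2* on chromosome 19, were lower. Shared 76-base windows were not computed for *Scd3* and *Scd4*, so the certainty of their counts is not known. *Scd1* shared 3.13% of its windows with other genes, and *Scd3* shared more of them than any other gene. *Scd4* fell from 188, 329, 171 and 284 to 78.6, 138 and 65.1, a log2 fold change of −1.38 ± 0.30 (SE), at an adjusted p of 0.00712 in limma. *Scd3* had a log2 fold change of −1.13 ± 0.35 (SE), at an adjusted p of 0.0302 in limma with overlapping values of 352 to 879 and 182 to 428. Of the 9 genes of fatty acid oxidation 8 were tested, 1 was higher and 3 were lower.

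None of the 6 mevalonate genes passed the test. Their log2 fold changes ranged from −0.11 to 0.17, and the widest bounds of their 95% intervals were −0.58 and 0.48. These intervals do not show that the genes were alike in both groups. *Hmgcs1* (ENSMUSG00000093930.2, chromosome 13), the cytosolic synthase that makes HMG-CoA, was at 7270, 9694, 5580 and 6123 in sgScramble and at 7111, 7941 and 4897 in sgKrt19. The spread within each group was wider than the gap between the means of 7167 ± 1826 and 6650 ± 1574. Its log2 fold change was −0.10 with an interval of −0.58 to 0.37. *Fdps*, which makes farnesyl diphosphate, was at 5137 to 7392 in sgScramble and 5024 to 7202 in sgKrt19. *Idi1*, the isopentenyl diphosphate isomerase, was at 3586 to 5488 and 3821 to 5457.

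*Mvk* and *Pmvk* encode the kinases of mevalonate and of phosphomevalonate. They were at 627 to 804 and 1109 to 1511 in sgScramble. In sgKrt19 they were at 615 to 727 and 1291 to 1399. *Mvd*, the decarboxylase that follows them, was at 1204 to 1782 and 1631 to 1760. The level of *Pmvk* in sgScramble 4, 1109, lay apart from the other sgScramble tumors at 1458 to 1511. Reads of *Idi1* and *Fdps* are less certain than those of the other mevalonate genes, as 23.5% and 23.4% of their 76-base windows occur in other genes.

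Of the 11 genes from squalene synthesis to cholesterol 1 was higher and 0 were lower, and the median log2 fold change was 0.03. *Msmo1* (ENSMUSG00000031604.10, chromosome 8, 64718139 to 64733792, minus strand) encodes the sterol-C4-methyl oxidase. Its values were 7200, 6926, 5310 and 4601 in sgScramble and 9729, 8627 and 7100 in sgKrt19, so that the lowest sgKrt19 tumor lay just below the highest sgScramble tumor. The log2 fold change was 0.51 ± 0.18 (SE), at an adjusted p of 0.0471 in limma, or 1.42-fold with an interval of 1.09 to 1.87. *Msmo1* passed the test in only 6 of the 15 other settings. It did not pass in edgeR, nor without sgScramble 2, 3 or 4 or sgKrt19 5 or 6.

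The other 10 sterol genes did not pass the test. *Lss*, the lanosterol synthase, was lower without passing the test, at 1349, 1804, 1181 and 1500 in sgScramble and at 845, 1335 and 978 in sgKrt19 (log2 fold change −0.48 ± 0.18 SE, adjusted p of 0.0648 in limma), and it passed in DESeq2, with scaling by totals, and without sgScramble 3 or sgKrt19 6. *Ebp*, a sterol isomerase, was at 1907 to 2430 in sgScramble and at 2501 to 2983 in sgKrt19, without overlap, with a log2 fold change of 0.28 ± 0.12 (SE), at an adjusted p of 0.091 in limma. *Nsdhl* and *Hsd17b7*, which work with *Msmo1* in removing the methyl groups at C4, differed by −0.11 and −0.01.

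*Sqle*, the squalene epoxidase that is a control point of the pathway, was at 3636 to 5303 in sgScramble and at 3823 to 5344 in sgKrt19, a log2 fold change of 0.09 with an interval of −0.27 to 0.45. *Fdft1*, the squalene synthase, differed by 0.15 with an interval of −0.22 to 0.53. Part of its count is uncertain, as 21.6% of its 76-base windows occur in other genes. *Cyp51*, the lanosterol demethylase, differed by −0.04, and *Tm7sf2*, a sterol reductase, by −0.10. The last steps are those of *Sc5d* and *Dhcr7*, a desaturase and a reductase, which differed by 0.10 and 0.03. Taking mevalonate and sterol genes as 17, the intervals of the 16 that did not pass ran at most from −0.88 (*Lss*) to 0.54 (*Ebp*). Before adjustment the intervals of those 2 genes did not reach 0. *Stard4*, a carrier that moves cholesterol between membranes, was at 2575 to 3770 in sgScramble and 2577 to 3373 in sgKrt19 and differed by −0.05.

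The 17 cholesterol genes varied together between tumors of the same group. Within sgScramble, tumor 2 was the highest for 12 of the 17 and tumor 1 for 5, and tumor 4 was the lowest for 11. Within sgKrt19, tumor 6 was the highest for 10 and tumor 5 for 7, while tumor 8 was the lowest for 14. Relative to the mean of the 7 libraries, the median deviation of the 17 genes on the log2 scale was 0.10, 0.21, −0.17 and −0.25 in sgScramble and 0.11, 0.22 and −0.26 in sgKrt19. Among the 6 fatty acid genes sgScramble 2 was likewise above sgScramble 1 and 3, but sgScramble 4 was high too, level with tumor 2 for *Fasn*, *Acly*, *Acaca* and *Elovl6* and below it for *Scd1* and *Scd2*. In sgKrt19, tumor 8 was the lowest for each of them except *Fasn*. This is a description of 7 libraries with no test. The same order was not computed over all genes, so the pattern is not shown to be particular to these genes.

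**Figure D3:**
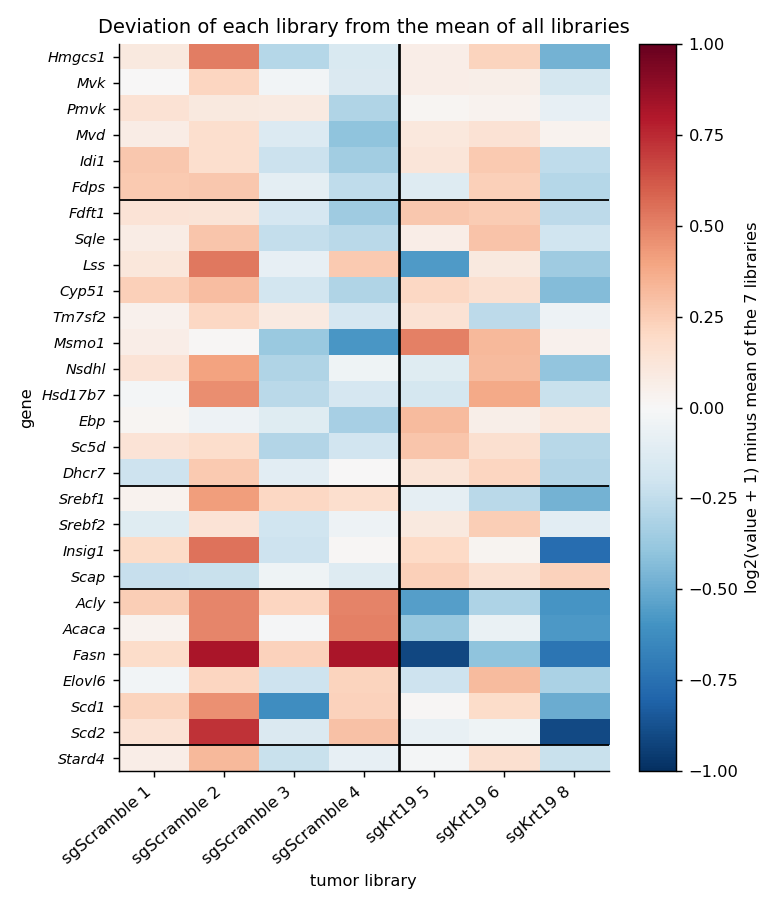
Deviation of each member in each tumor library from its mean over the 7 libraries, on the log2(value + 1) scale, with genes in pathway order and a line between the groups. For most cholesterol genes sgScramble 2 is red and sgKrt19 8 blue, and the median deviation of these genes takes both signs within each group. *Fasn*, *Acly* and *Srebf1* divide the groups, and so does *Scap* in the other direction. *Acaca* and *Ebp* divide them narrowly.

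Among the regulators 1 gene was higher, 1 was lower and 2 did not pass the test. *Srebf1* (ENSMUSG00000020538.15, chromosome 11, 60199089 to 60222581, minus strand) encodes SREBP1. It was at 4758, 6233, 5373 and 5241 in sgScramble and at 4378, 3859 and 3359 in sgKrt19, with no overlap. The log2 fold change was −0.48 ± 0.13 (SE), at an adjusted p of 0.0172 in limma, or 0.715-fold with an interval of 0.586 to 0.872. It did not pass without sgScramble 2 or without sgKrt19 8.

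*Srebf2* (ENSMUSG00000022463.8, chromosome 15), which encodes SREBP2, was at 7642, 9132, 7225 and 8025 in sgScramble and at 8890, 9888 and 7733 in sgKrt19. These overlap, with a log2 fold change of 0.14 and an interval of −0.14 to 0.42 (limma, adjusted p = 0.409). The ratio of *Srebf1* to *Srebf2* within a library, chosen after the values were seen, was 0.623, 0.683, 0.744 and 0.653 in sgScramble and 0.493, 0.390 and 0.434 in sgKrt19. It was lower in each of the 3 sgKrt19 tumors than in any sgScramble tumor. The table gives 1 value for *Srebf1*, so its transcripts SREBP1a and SREBP1c were not separated.

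*Scap* (ENSMUSG00000032485.14, chromosome 9, 110333288 to 110384950, plus strand) encodes the escort of the SREBPs. It was at 2202, 2204, 2499 and 2365 in sgScramble and at 3044, 2866 and 3034 in sgKrt19, and the groups did not overlap. The log2 fold change was 0.36 ± 0.10 (limma, adjusted p = 0.0172), or 1.29-fold, with the smallest SE of the 28 members. The difference was 0.15 and did not pass when libraries were scaled by their totals, and it did not pass without sgScramble 2 or without sgKrt19 8. An opposite-strand gene, *5830462I19Rik*, covers 13.2% of its exon bases.

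*Insig1*, which retains SCAP when sterols are abundant and is itself induced by SREBPs, was at 1731, 2211, 1312 and 1526 in sgScramble and at 1738, 1541 and 893 in sgKrt19 (log2 fold change −0.32, interval −0.84 to 0.21). Its low value in sgKrt19 8 went with the low cholesterol genes of that tumor. Of 6 further genes of SREBP control and lipoprotein uptake 1 was higher and 0 were lower, and of 5 further cholesterol genes 4 were tested with 1 higher and 0 lower. Of the 11 targets of the liver X receptor and genes of sterol efflux 0 were higher and 1 was lower.

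The 4 members that were lower share a feature that the choice of members did not use, which was seen after the values were known. *Srebf1*, *Acaca*, *Acly* and *Fasn* all lie on chromosome 11, as does the edited *Krt19*, and none of the other 24 members does. The 3′ end of *Acly* lies 328 kb from the 5′ end of *Krt19*. Of the 24 members on other chromosomes 2 were higher and 0 were lower, with a median log2 fold change of −0.02.

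Genes of chromosome 11 tended to be lower in sgKrt19 tumors. Of its 825 genes with a mean value of at least 500, 44.0% were called, 9.09% higher and 34.9% lower, and their median log2 fold change was −0.20. That median was the lowest, and the share called lower the highest, among the 20 chromosomes. Chromosome 16 came next, with a median of −0.16 and 25.8% lower, and then chromosome 3, with −0.13 and 29.4%. Chromosome 3 carries *Pmvk*, *Fdps* and *Elovl6*, none of which was called. The median of chromosome 11 was the lowest in every one of the 15 other settings too. It ran from −0.42 (scaling by totals, where the median of all genes was −0.21) to −0.18. The shift was spread along chromosome 11, since 11 of 12 windows of 10 Mb with at least 20 genes had a median under 0, from −0.34 to 0.01 over the 12. Its part in the values of the 4 members was not tested.

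Measured from the chromosome median, *Fasn* was lower by a log2 difference of −0.99, *Acly* of −0.64, *Acaca* of −0.39 and *Srebf1* of −0.28. Only 13 of the 825 genes had a lower log2 fold change than *Fasn* and 44 a lower one than *Acly*, while 135 lay under *Acaca* and 207 under *Srebf1*. The interval of *Srebf1*, with an upper bound of −0.20, and that of *Acaca*, with −0.21, thus ended near the median of the chromosome, and those of *Acly* (−0.57) and *Fasn* (−0.76) ended below it. The members that rose lie on chromosomes with medians above 0, as do some members that were not called, and no link was tested. *Lss* (−0.48) lies on chromosome 10, with a median of 0.20, *Hsd17b7* (−0.01) on chromosome 1, with 0.20, and *Hmgcs1* (−0.10) on chromosome 13, with 0.17. *Msmo1* is on chromosome 8, with a median of 0.21 and 33.6% of genes higher, and *Scap* is on chromosome 9, with 0.11 and 25.1%, against 21.5% over all chromosomes. *Mvd*, the other member on chromosome 8, differed by 0.17, and *Sc5d*, the other one on chromosome 9, by 0.10.

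**Figure D4:**
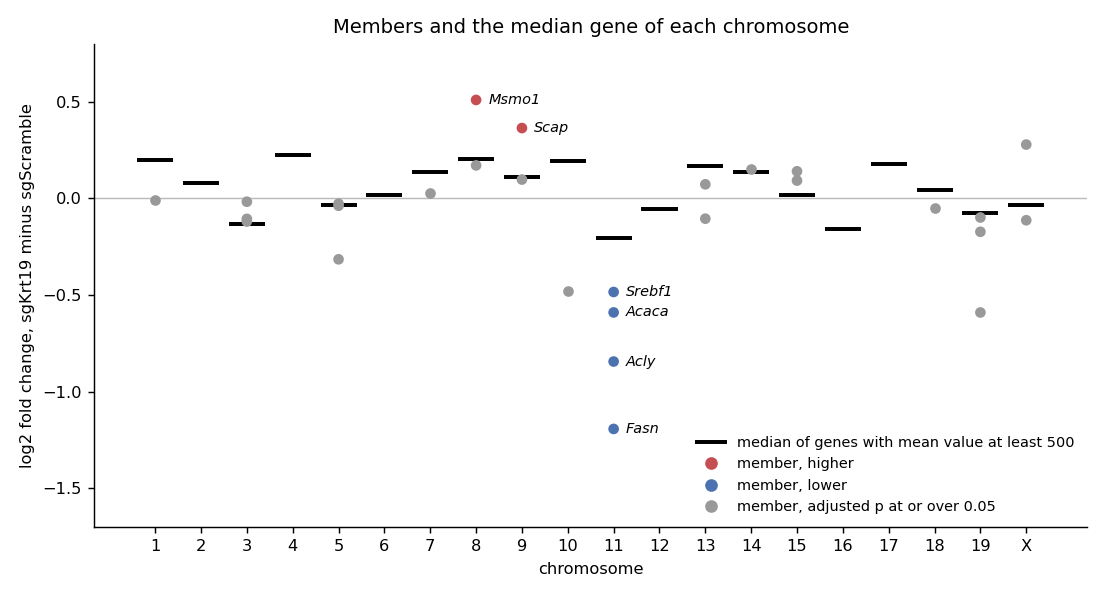
Log2 fold change (sgKrt19 minus sgScramble) of the 28 members (points) by chromosome, with the median of all genes with a mean value of at least 500 on each chromosome (bars). Chromosome 11 has the lowest median, −0.20, and carries the 4 members called lower (blue). The 2 members called higher (red) are on chromosomes 8 and 9.

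Other cells of a subcutaneous tumor also use these genes, so markers of such cells were read beside them. Adipocytes are rich in *Fasn*, *Acly* and *Scd1*. Of 9 adipocyte markers 7 were tested, 0 were higher and 1 was lower (*Plin4*, log2 fold change −1.10; limma, adjusted p = 0.0025). The summed adipocyte markers were 1125 to 3715 in sgScramble and 2009 to 3110 in sgKrt19, and they varied widely within sgScramble, at 3715, 1125, 1453 and 2587. In sgKrt19 most of the sum was *Fabp4*, at 1933, 1083 and 1858, against 346 to 1610 in sgScramble. Without passing the test, *Fabp4* (1.13) and *Cidec* (0.39) had log2 fold changes above 0. Those of *Adipoq* (−0.59), *Plin1* (−0.70), *Retn* (−0.73) and *Cfd* (−0.29) were below 0, also without passing it. The median over the tested adipocyte markers was −0.59. The markers thus went both ways, and their sum is no measure of adipocyte content. Among the sgScramble tumors *Fasn* was lowest in tumor 1 (7158), which had the highest sum. *Fasn* was highest in tumor 4 (11156), which had the next highest sum, and no link was tested. Sebaceous gland and skin keratinocyte markers were near the floor in part, with *Awat1* at 0 and *Elovl3*, *Krt1* and *Dsg1a* at 3 reads or fewer in all libraries. Their summed values overlapped between the groups, at 1552 to 2013 and 1831 to 2110 for sebaceous glands and at 189 to 283 and 227 to 290 for keratinocytes. The sebaceous sum was mostly *Far2*. Of 4 sebaceous markers tested 0 were higher and 1 was lower (*Krt79*, log2 fold change −0.79; limma, adjusted p = 0.0344), and of 4 keratinocyte markers tested *Krt15* was higher (1.23) and *Lor* lower (−1.51).

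Markers of several other cell types moved with the groups. All 8 skeletal muscle markers, all 8 T cell markers and all 7 leukocyte markers were higher in sgKrt19, as were 6 of 12 epithelial markers and 3 of 6 endothelial markers, with 0 lower in either list. The summed endothelial markers were 2872 to 3956 in sgScramble and 4568 to 5628 in sgKrt19. Of 8 macrophage markers 4 were higher and 1 was lower, and of 8 fibroblast markers 0 were higher and 0 lower. The summed muscle markers in sgScramble 3 were 2187, against 56.3 to 82.5 in the other sgScramble tumors, and its values of *Fasn* (7409) and *Acly* (6836) were close to those of sgScramble 1 (7158 and 6990). Without sgScramble 3 the 4 genes on chromosome 11 still passed the test. The muscle sums of the remaining sgScramble tumors still lay far below the 19048 to 27032 of sgKrt19. Muscle content and group thus cannot be told apart by this omission. Of 8 proliferation markers 1 was higher and 0 were lower. The part of these cells in the values of the members was not tested.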

How the data were processed

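The authors deposited 1 table of 38026 genes with 7 columns, 1 per tumor library. Its values are a signal, reads per gene that the authors divided by a size factor for each library, per the labels on the mm10 build. The aligner and the counting program are not given in the sources used here. Per the labels the RNA was polyA RNA, while the methods name an Illumina TruSeq kit for stranded total RNA, read as single ends. Between 99.986% and 100% of the values in a library came out as whole reads within 0.001. The 21322 genes that reached a value of 10 in 3 or more libraries were tested with limma 3.58.1 in R 4.3.3 (lmFit, then eBayes with trend) on log2(value + 1), a scale that understates changes of low genes, with the group as the only term and Benjamini-Hochberg adjustment at 0.05. Intervals are 95% and come from the same fit. The recovered reads were tested with edgeR 4.0.16 (quasi-likelihood), which called 7188 genes, 7010 of them in the same direction as limma, and with DESeq2 1.42.0. The fit was tested on simulated data. Other settings were the pseudocount, the filter, scaling by totals, the variance trend and leaving out each library. Positions, exons and shared windows came from GENCODE M21 (GRCm38), in which 97.6% of identifiers had the same version. Depth was 40781199 to 44972100 reads, and reads carry no molecular identifiers, so floors cover counting error only. Named are the 28 members and *Krt19*, genes of 5 related pathway lists that passed 0.05 and differed by 1 or more on the log2 scale, and markers at 0 or put beside a result. *Plin4*, *Acsl3*, *Epcam*, *Krt7*, *Cdh1*, *Insig2*, *Far2*, *Krt79*, *Krt15* and *Lor* were named after their values were seen. So were *Krt8*, *Krt18*, *Cldn4*, *Ocln*, *Fabp4*, *Cidec*, *Adipoq*, *Plin1*, *Retn* and *Cfd*. The members and the gene lists were chosen with earlier results of these data known. No columns of comparisons were in the table.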

Additional observations from a re-analysis of the deposited data

Results flagged for a closer look

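In the 4 sgScramble tumors 89 results were searched for a library apart from the others by Dixon's criterion, and 3 were found, 3.37%, where chance gives about 1 in 20. *Pmvk* was at 1109 in sgScramble 4, below the other 3. *Acsl3*, which activates long-chain fatty acids and was lower in sgKrt19, was at 4003 in sgScramble 2, above the other 3 at 3139 to 3227. The summed skeletal muscle markers were 2187 in sgScramble 3.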

How the results depend on the processing

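No paired analysis was possible because the groups share no replicate number. Scaling by library totals moved the median gene from 0.01 to −0.21 on the log2 scale and the calls from 3820 higher and 3420 lower to 2187 and 5705, so that 27.7% of calls were higher instead of 52.8%. Under it 0 members and 4 other pathway genes were higher, the member median was −0.26, and the log2 fold changes of *Mvd* (−0.045), *Idi1* (−0.14), *Fdft1* (−0.063), *Sqle* (−0.12), *Sc5d* (−0.12), *Dhcr7* (−0.19) and *Srebf2* (−0.076) turned negative. With no filter, in edgeR and with no variance trend 1 member was higher. Leaving out 1 library at a time gave 2257 to 3637 genes lower, 0 to 2 members higher, 2 to 5 members lower, 5 to 10 other pathway genes higher and 4 to 9 lower, and 1 to 3 marker genes lower. The fewest genes lower came without sgScramble 2, the fewest members higher without sgScramble 2 and the fewest members lower without sgScramble 2 or sgKrt19 8. Members whose sign changed when 1 library was left out had these ranges of log2 fold change, with no call in any of them. In mevalonate genes they were −0.25 to 0.10 for *Hmgcs1*, −0.079 to 0.051 for *Mvk*, −0.12 to 0.029 for *Pmvk*, −0.035 to 0.22 for *Idi1* and −0.25 to 0.0067 for *Fdps*. In sterol genes they were −0.024 to 0.22 for *Sqle*, −0.15 to 0.17 for *Cyp51*, −0.20 to 0.0025 for *Tm7sf2*, −0.30 to 0.051 for *Nsdhl*, −0.20 to 0.15 for *Hsd17b7*, −0.014 to 0.26 for *Sc5d* and −0.073 to 0.18 for *Dhcr7*. In *Elovl6*, *Scd1* and *Stard4* they were −0.31 to 0.0057, −0.40 to 0.025 and −0.14 to 0.052. Over the 29 genes named and 15 settings, 373 values kept direction and side of the threshold, 37 turned, 19 lost a call and 6 gained one, and the cause was not tested. The 95% intervals of cholesterol genes without a call reached at most −0.88 and 0.54.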

Other observations

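Within sgScramble the tumors that were high in fatty acid genes were low in most epithelial markers. Of the 12 markers of the list, 11 were lower in both tumors 2 and 4 than in tumors 1 and 3 and 1, *Cdh1*, was higher (26890 and 27150 against 24121 and 25805). *Fasn* was at 11119 and 11156 in tumors 2 and 4 and at 7158 and 7409 in tumors 1 and 3, and *Scd4* was at 329 and 284 against 188 and 171. *Epcam*, an epithelial adhesion molecule, was at 376 and 402 in tumors 2 and 4 and at 1273 and 1588 in tumors 1 and 3. *Krt7*, a keratin of ductal epithelium, was at 3958 and 3793 against 10462 and 9181. These pairs of tumors were noticed in the data and are not groups of the study, and no test was made. The sgKrt19 tumors followed the same order only in part. sgKrt19 5 had the lowest *Fasn* of its group (3361) with the highest *Epcam* (1247). However, sgKrt19 6 had the highest *Fasn* (4778) with *Epcam* at 1169, and sgKrt19 8 had *Fasn* at 3803 with *Epcam* at 322.

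The ratio of *Fasn* to *Hmgcs1* within a library was 0.985, 1.15, 1.33 and 1.82 in sgScramble and 0.473, 0.602 and 0.777 in sgKrt19. The ratio of *Insig1* to *Insig2*, which both retain SCAP, was 1.06, 1.69, 0.954 and 1.25 in sgScramble and 0.732, 0.895 and 0.507 in sgKrt19, with *Insig2* at 1225 to 1628 and 1722 to 2374. Both ratios were chosen after the values were seen.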
